A study of Mus musculus with 20 samples.

Results

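RNA from microglia (MG) sorted out of GL261 tumours was compared with RNA from microglia of normal brain, 3 libraries against 3, which are 6 of the 20 libraries of the series. The libraries were taken by their titles, GL261 MG 80766, 80767 and 80769 and normal MG 67572, 67573 and 67574, and no measured value entered the choice. GL261 is a mouse glioma cell line derived from the C57BL/6 strain, so every GL261 tumour here stands for 1 line. Another group is used at the end, MG of a genetically engineered mouse model (GEMM) of glioma, libraries 68702, BB30101 and BB30105. In that model an RCAS avian retroviral vector carrying PDGFB and another carrying a short hairpin against p53 (RCAS-PDGFB-HA and RCAS-shP53) were delivered with DF1 producer cells to mice aged 5 to 6 weeks. All mice were C57BL/6, and the labels repeat for every sample the Flt3:Cre Rosa26:mTmG reporter, in which descendants of Flt3-expressing bone marrow progenitors turn from TdTomato to GFP. The sources used here do not say how the GL261 tumours were made, whether the GL261-bearing and normal mice carried the reporter, or how old those mice were. The gate described for MG was CD45+, CD11b+, Ly6C-, Ly6G-, GFP- and TdTomato+. RNA was polyadenylated and amplified with a Smart-Seq kit. The numbers in the titles were taken as animals; should they not be, the p-values cover the spread among these libraries alone, which may be technical.

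Microglia are the resident macrophages of the brain. They are kept in their resting state by TGF-beta and by the CSF1 receptor ligands, and their sensing of the tissue runs through a set of genes for purinergic, chemokine and lipid receptors. Around dying neurons, plaques and tumours, microglia take up lipid and debris and turn on lysosomal and lipid genes, a state called disease-associated. Interferons turn on separate sets of antiviral and antigen-presentation genes in the same cells.

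Total counts were 18113450 to 20934656 per library in GL261 MG, 23064781 to 36297826 in GEMM MG and 26421803 to 30391652 in normal MG. Gene levels are in CPM, that is counts divided by the TMM-scaled library size, given by library in the order of the numbers above. CPM of different genes are not scaled to gene length, so only the same gene is compared between libraries. Library 80769 stood apart. Of 15363 genes tested, 58 were counted as more than 4-fold above and 96 as more than 4-fold below both other GL261 MG libraries in it. The same counts were 1 and 2 genes in 80766 and 3 and 5 genes in 80767. A gene counted as above had to reach 20 CPM in the library itself, and a gene counted as below had to reach 20 CPM in both others. Results that rest on 80769 are given with and without it, except list counts against GEMM MG, which were not recomputed.

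The cell type was checked on 12 microglia markers, whose summed level was 10261, 8105 and 2773 CPM in GL261 MG and 40927, 45580 and 40740 CPM in normal MG. All 12 were tested and all 12 were lower in GL261 MG, in a sum that stayed above the mean of 1451 CPM in bone-marrow-derived macrophages (BMDM) of GL261 tumours. In bulk RNA, fewer microglia in the sorted cells and less of a transcript per microglial cell cannot be told apart. Markers of other cells differed too. Oligodendrocyte precursor markers, which glioma cells also express, summed to 509.9, 628 and 1019.7 CPM in GL261 MG against 5.84, 9.91 and 15.5 CPM in normal MG, with 8 of 9 markers called higher. Markers of monocyte-derived macrophages summed to 912, 886 and 1503 CPM in GL261 MG against 61.1, 62.7 and 80.7 CPM in normal MG, with 12 of 13 called higher. Vim, vimentin, was 242, 345 and 748 CPM of that in GL261 MG against 5.58, 3.56 and 4.94 CPM in normal MG. In GL261 BMDM Vim was at 202, 324 and 451 CPM, below GL261 MG of the same number. The other 12 markers summed to 669, 542 and 755 CPM in GL261 MG against 55.5, 59.1 and 75.7 CPM in normal MG. Of 12 classical monocyte markers 11 were higher and 0 lower. In 80769 most of their summed level was Chi3l3, a chitinase-like protein also counted among alternative activation genes, at 0.0429, 1.24 and 4421 CPM in GL261 MG against 0.0672, 0.0392 and 0.0686 CPM in normal MG, and the other 11 markers summed to 106, 83.3 and 155 CPM in GL261 MG against 11.3, 12.3 and 14.9 CPM in normal MG. Border-associated macrophage markers, 5 of 10 higher and 1 lower, summed to 142, 86.4 and 945 CPM in GL261 MG against 49, 46.8 and 73.2 CPM in normal MG. Among the higher ones, Mrc1 (log2 0.05, adjusted p = 0.967) and Pf4 (log2 0.79, adjusted p = 0.184) lost their calls without 80769. Library 80769 thus had the lowest microglia sum and the highest glioma, monocyte and border-associated macrophage sums of the 3. Markers of T cells were at low levels, and 9 of 10 were higher. The exception was Il7r, the interleukin 7 receptor, lower at 9.56, 5.44 and 4.42 CPM in GL261 MG against 59.1, 77.5 and 81.9 CPM in normal MG, while the other 9 summed to 14.5, 12 and 22 CPM in GL261 MG against 1.34, 0.666 and 0.96 CPM in normal MG. Of 12 neutrophil markers 4 were higher and 1 lower. The 4 were S100a8, Cxcr2, Mmp8 and Mmp9, and all lost their calls without 80769 (adjusted p = 0.546, 0.128, 0.163 and 0.436). The lower one was Csf3r, the receptor for granulocyte colony-stimulating factor, at 272, 288 and 69 CPM in GL261 MG against 634, 624 and 595 CPM in normal MG, and the other 11 summed to 4.59, 2.61 and 44.1 CPM in GL261 MG against 1.04, 0.509 and 0.891 CPM in normal MG. The part of these cells in the results that follow was not tested.

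**Figure D1:**
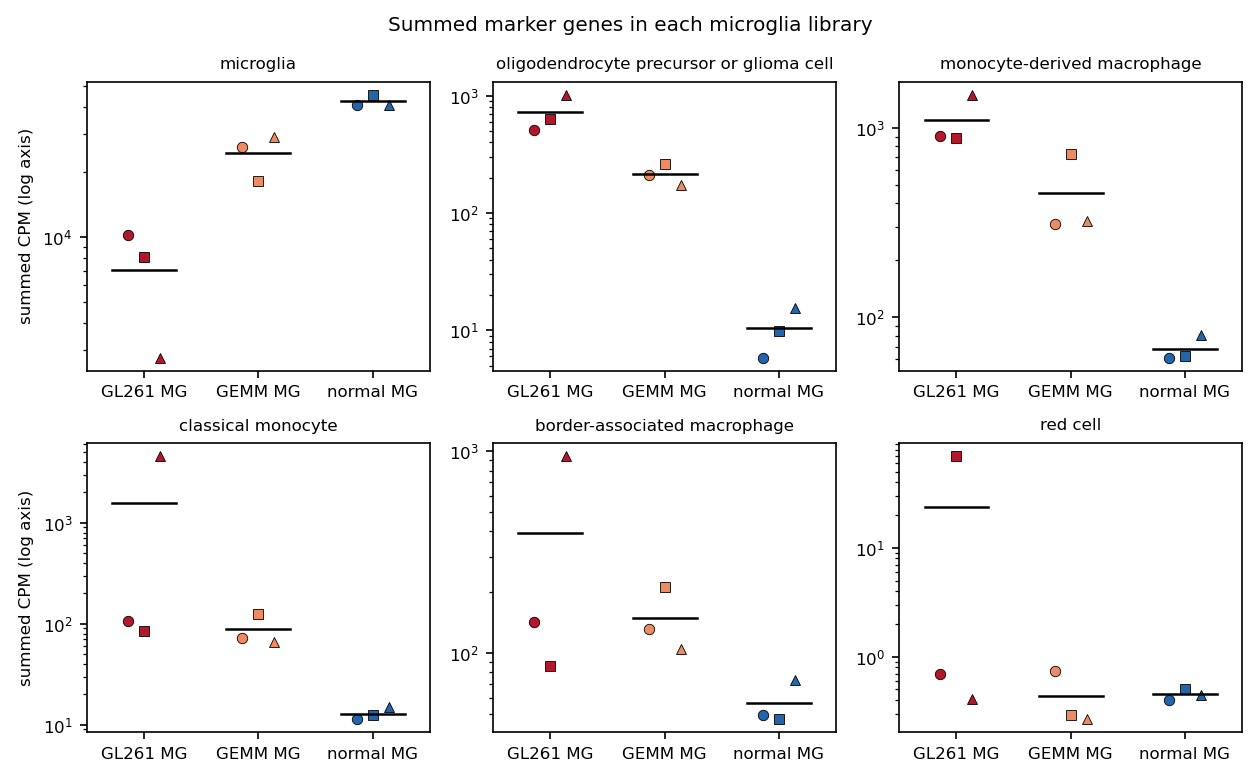
Summed CPM (log axis) of 6 marker lists in GL261 MG, GEMM MG and normal MG from left to right; points are libraries and bars group means. The microglia sums of GL261 MG, 2773 to 10261 CPM, lie below all normal MG libraries, which start at 40740 CPM; Chi3l3 makes up 4421 CPM of the classical monocyte sum of 4575 CPM in GL261 MG 80769.

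Of the genes named in the gate, Ptprc, which encodes CD45, was at 363, 320.4 and 128 CPM in GL261 MG, against 527, 548 and 479 CPM in normal MG (log2 −0.94 ± 0.29, adjusted p = 0.0108). Itgam, which encodes CD11b, was at 1170.5, 865 and 270.1 CPM in GL261 MG, against 1647, 1717 and 1403 CPM in normal MG (log2 −1.05 ± 0.39, adjusted p = 0.0283), and without 80769 its call was lost (log2 −0.64, adjusted p = 0.0958). Both were lowest in 80769, and the calls on Ptprc and Itgam were also lost when the 2 groups were fitted alone (log2 −0.92, adjusted p = 0.0777 for Ptprc and log2 −1.02, adjusted p = 0.121 for Itgam). Of the Ly6C genes, whose antigen was gated out, Ly6c1 was at 21.1, 21.4 and 4.68 CPM in GL261 MG, against 17, 5.87 and 13.2 CPM in normal MG and was not called (log2 0.38 ± 0.59, adjusted p = 0.597). Ly6c2 was at 3.64, 0.84 and 2.73 CPM in GL261 MG, against 0, 0 and 0 CPM in normal MG, which makes it at least 67.7-fold higher on a floor of 3 counts over the normal group, and was called (log2 8.64 ± 1.26, adjusted p = 2.58e-05, a fitted value that is no bound). Itga4, which encodes CD49D, an integrin of blood-derived macrophages that the gate did not use, was at 14.7, 16.6 and 30.3 CPM in GL261 MG, against 1.38, 0.313 and 2.06 CPM in normal MG (log2 4.02 ± 0.5, adjusted p = 3.1e-06). The 3 GL261 BMDM libraries had 80.8 CPM of Itga4 on average, above each GL261 MG library. Ccr2, the receptor that brings monocytes out of bone marrow, was at 4.2, 6.28 and 18.3 CPM in GL261 MG, against 7.19, 8.11 and 9.29 CPM in normal MG and was not called (log2 0.23 ± 0.48, adjusted p = 0.704), its fitted difference going below 0 without 80769 (log2 −0.65, adjusted p = 0.246).

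GL261 MG differed from normal MG across much of the transcriptome. By edgeR's quasi-likelihood test with Benjamini-Hochberg adjustment, 4701 genes were higher in GL261 MG, 30.6% of those tested, and 4178 were lower, 27.2%, which makes 57.8% in either direction. The larger changes were mostly increases, with 1821 genes called more than 8-fold higher and 306 called more than 8-fold lower. The median log2 fold change of all genes was 0.0061. Because so many genes were called, a list of genes is described below by its counts in each direction and its median, to be read against these shares.

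**Figure D2:**
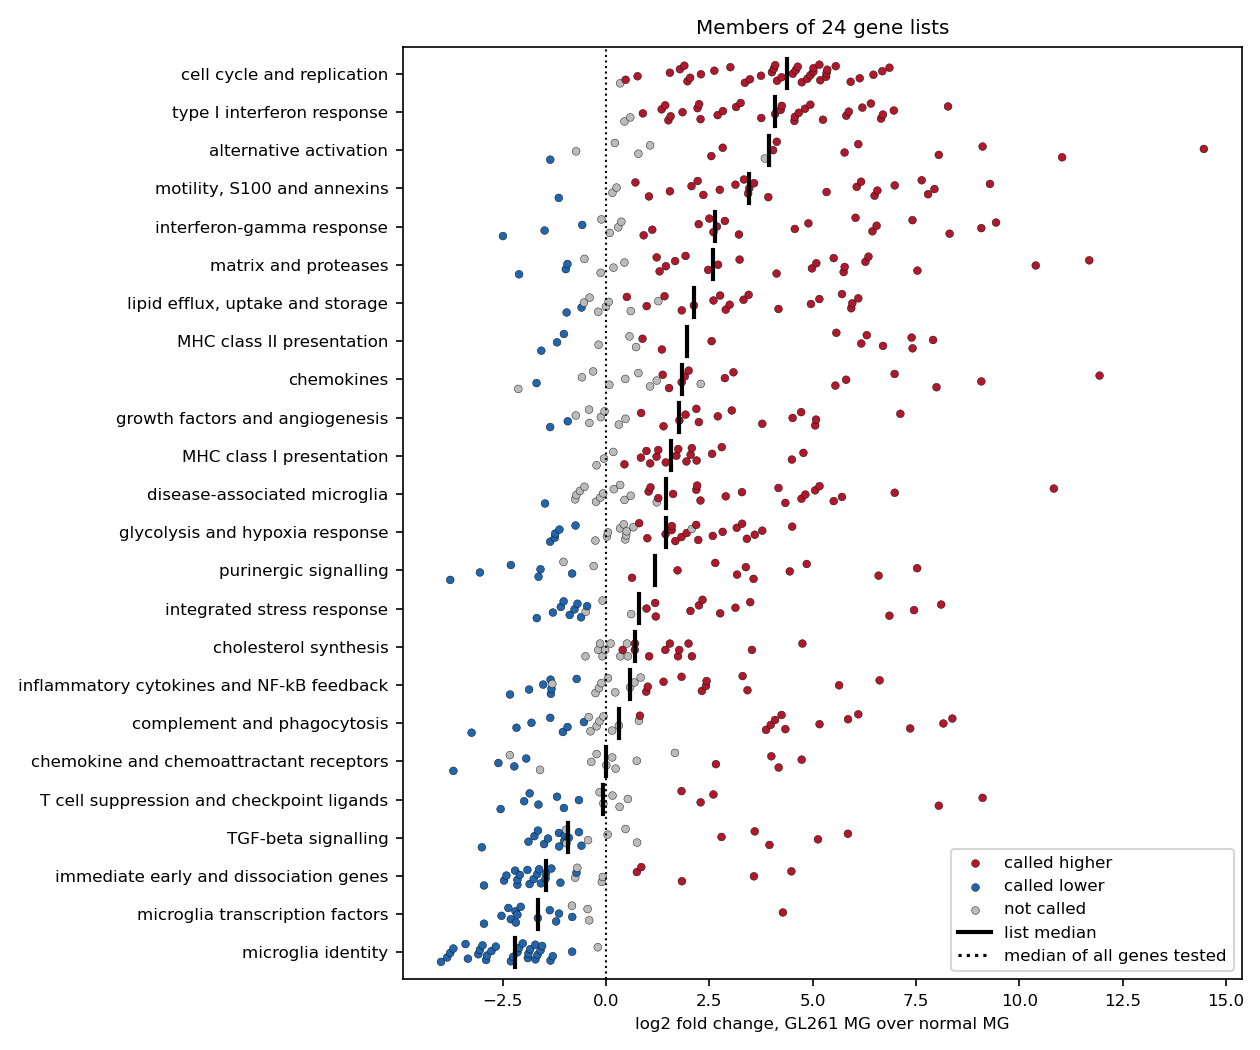
Each of 24 gene lists by the log2 fold change, GL261 MG over normal MG, of its tested members. Points are genes, coloured by call, and the bar is the median; type I interferon and cell cycle genes lie to the right of 0, microglia identity genes to the left.

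The genes with the largest increases were nearly absent from normal MG. Moxd1, a copper monooxygenase-like protein (chromosome 10, 24223517 to 24302783, GRCm38.p6), was at 780.5, 914 and 2643 CPM in GL261 MG, against 0, 0.0783 and 0.0343 CPM in normal MG (log2 15.08 ± 1.17, adjusted p = 2.1e-08). Normal MG had 3 counts of it in all, and the ratio of means was 40722-fold with an exact Poisson 95% interval of 13934 to 197467, which covers counting error only. Its fitted log2 value was 14.31 without 80769, 14.44 without normal MG 67572 and 15.85 without normal MG 67573. H19, an imprinted noncoding RNA, was at 56.1, 91.5 and 71.8 CPM in GL261 MG and had no count in normal MG, which makes it at least 2059-fold higher against a floor of 3 counts over the group. On the same floor Has2, a hyaluronan synthase, was at least 1672-fold higher, with 31.3, 39 and 108 CPM in GL261 MG. Fam19a4, a secreted peptide, was at least 2103-fold higher and 4930550L24Rik, which has no name beyond its clone, at least 2546-fold. F7, coagulation factor VII, had 8.53, 1.42 and 82.8 CPM in GL261 MG and no count in normal MG, at least 870-fold higher, and its fitted log2 of 12.32 became 9.67 without 80769. The BMDM of the same 3 tumours held these transcripts as well, H19 at 18, 44.1 and 32.5 CPM, Has2 at 11.9, 32.1 and 65.9 CPM and F7 at 145, 39 and 767 CPM. F7 averaged more in BMDM than in MG of GL261 tumours, and H19 and Has2 averaged less.

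Serpina3n, an inhibitor of serine proteases that reactive astrocytes are known for, was at 126, 228 and 471 CPM in GL261 MG, against 0, 0 and 0.137 CPM in normal MG (log2 12.33 ± 0.97, adjusted p = 2.42e-08). Its fitted difference moved to log2 11.7 without 80769, 11.68 without normal MG 67572 and 15.39 without normal MG 67574, since the level in normal MG rests on few counts. Of 9 astrocyte markers 1 was higher and 6 lower. Slc1a3, a glutamate transporter and most of their sum, was at 120.3, 128 and 205 CPM in GL261 MG against 373, 445 and 396 CPM in normal MG, and the other 8 summed to 52.7, 54.4 and 90.9 CPM in GL261 MG against 50.8, 96 and 165 CPM in normal MG. Insl6, an insulin-like peptide, and the X-linked genes Xlr3c and Gm773 were at least 727-fold, 778-fold and 721-fold higher. Xlr3c has near-identical copies, so its count is uncertain.

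The largest decreases were in genes of lower fold. Gpr165, an orphan receptor, was at 3.47, 1.68 and 0.299 CPM in GL261 MG, against 149, 167 and 135 CPM in normal MG (log2 −6.38 ± 0.88, adjusted p = 9.34e-06), and at log2 −7.25 without 80766, the highest of the GL261 libraries. Rapgef4, a cyclic-AMP-activated exchange factor for Rap, was at 2.27, 0.973 and 0.936 CPM in GL261 MG, against 20.4, 36.7 and 68.3 CPM in normal MG (log2 −4.9 ± 0.69, adjusted p = 1.02e-05). Abcb4, a phospholipid transporter, was at 2.87, 2.17 and 0.823 CPM in GL261 MG, against 59.9, 58.2 and 55.2 CPM in normal MG (log2 −4.89 ± 0.48, adjusted p = 2.28e-07). Tmem204, Nrsn1, Gp9, Klhdc8b and Kcnk12 made up the rest of the 10 with BC018473 and Ttr. The rule that picked these genes required each GL261 library to be below each normal library, so that separation is not a result. BC018473 was at 0, 0 and 0 CPM in GL261 MG, against 0.101, 31.9 and 36.4 CPM in normal MG, which makes it at least 552-fold lower on the group floor of 3 counts, and 2 of the 3 normal libraries carry that difference. Ttr, the thyroid hormone carrier made by choroid plexus, was at 0.214, 0 and 0 CPM in GL261 MG, against 123, 6.42 and 17.2 CPM in normal MG (log2 −9.34 ± 1.51, adjusted p = 7.15e-05), and its log2 value ran between −12.97 without GL261 MG 80766 and −7.35 without normal MG 67572.

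**Figure D3:**
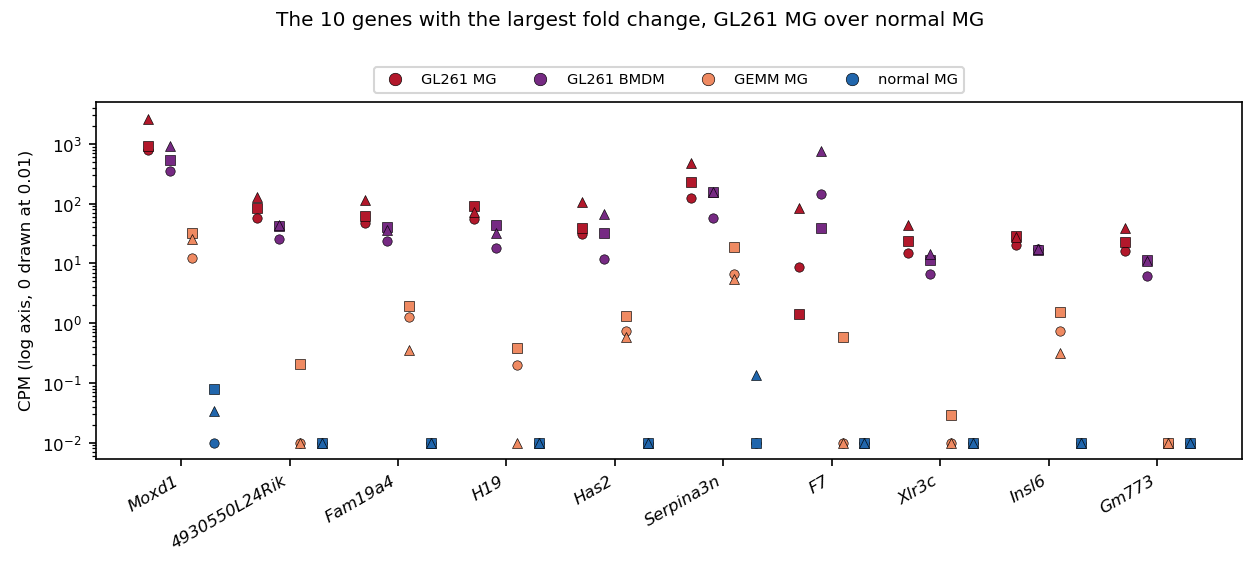
CPM (log axis, with 0 drawn at 0.01) of the 10 genes with the largest fold change, in libraries of GL261 MG, GL261 BMDM, GEMM MG and normal MG from left to right within each gene; each point is a library. Normal MG lie at or near 0 for all 10. F7 is higher in each GL261 BMDM library than in the GL261 MG library of the same number, and H19 and Has2 are lower.

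Genes that define resting microglia fell. Of 30 identity genes tested, 0 were higher and 29 were lower (27 without 80769), with a median log2 of −2.2 (−1.84 without 80769). Of the 29, 26 were highest among the GL261 libraries in 80766 and 0 in 80769, the order of the microglia marker sums. P2ry12, the ADP receptor that steers microglial processes (chromosome 3, 59216271 to 59262985), was at 642, 574 and 139 CPM in GL261 MG, against 5766, 6774 and 5998 CPM in normal MG (log2 −3.77 ± 0.48, adjusted p = 3.39e-06), 13.7-fold lower. Cx3cr1, the fractalkine receptor, was at 595, 485 and 104 CPM in GL261 MG, against 5009, 5638 and 4729 CPM in normal MG (log2 −3.7 ± 0.64, adjusted p = 9.05e-05). Gpr34, a lysophosphatidylserine receptor, was at 350.0, 262 and 71.1 CPM in GL261 MG, against 3152, 3655 and 3029 CPM in normal MG (log2 −3.85 ± 0.5, adjusted p = 4.25e-06). In all 3 receptors 80769 was lowest. No GL261 library reached the lowest normal one, as for 33.1% of all genes tested.

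Other identity genes fell with these receptors. Cst3, cystatin C, an inhibitor of cysteine proteases, was at 4625, 4446 and 1587 CPM in GL261 MG, against 28906, 25404 and 25618 CPM in normal MG (log2 −2.91 ± 0.32, adjusted p = 7.63e-07). Fcrls, an Fc-receptor-like protein of microglia, was at 337, 315 and 105 CPM in GL261 MG, against 2521, 2840.5 and 2341 CPM in normal MG (log2 −3.35 ± 0.54, adjusted p = 4.24e-05). Both genes were well below the normal range in every GL261 library. Golm1, a Golgi membrane protein, was at 411, 312 and 128 CPM in GL261 MG, against 1837, 2141 and 1854 CPM in normal MG (log2 −2.78 ± 0.31, adjusted p = 8.52e-07). Siglech, a sialic acid receptor, was at 482, 354 and 71.6 CPM in GL261 MG, against 2609, 2400.2 and 2209.6 CPM in normal MG (log2 −2.99 ± 0.59, adjusted p = 0.000344). Tmem119, a membrane protein used as a microglia marker, fell least of the named ones and was at 1239.5, 1272 and 196 CPM in GL261 MG, against 3002, 3857 and 3128 CPM in normal MG (log2 −1.88 ± 0.67, adjusted p = 0.0229). Its call did not hold without 80769 (log2 −1.41, adjusted p = 0.0896) or with no filter on low counts (log2 −1.85, adjusted p = 0.0539). Nav3 was the 1 identity gene not called.

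Transcription factors of microglia followed, with 13 of 17 lower (13 without 80769), 1 higher and 3 not called, and a median log2 of −1.65 (−1.33 without 80769). Sall1, which holds microglial identity (chromosome 8, 89027242 to 89044162), was at 135, 97.1 and 28.2 CPM in GL261 MG, against 360.0, 381 and 351 CPM in normal MG (log2 −2.07 ± 0.56, adjusted p = 0.00453). Klf2 was at 177, 161 and 72.6 CPM in GL261 MG, against 764, 579 and 528 CPM in normal MG (log2 −2.19 ± 0.28, adjusted p = 3.81e-06), Hhex at 45.8, 33.8 and 10.2 CPM in GL261 MG, against 177, 161 and 126 CPM in normal MG (log2 −2.37 ± 0.35, adjusted p = 1.77e-05), and Mef2a, a partner of Mef2c, at 172, 136 and 98.1 CPM in GL261 MG, against 604, 684 and 572 CPM in normal MG (log2 −2.19 ± 0.23, adjusted p = 3.98e-07). The exception was Bhlhe40, a basic helix-loop-helix repressor of activated macrophages, at 38, 28.5 and 76.1 CPM in GL261 MG, against 2.86, 1.68 and 2.78 CPM in normal MG (log2 4.28 ± 0.5, adjusted p = 1.64e-06). It was highest in 80769, and its lowest GL261 library, 80767, was far above the highest normal one.

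In TGF-beta signalling, the pathway that keeps microglia at rest, 5 of 24 genes tested were higher and 13 lower (6 and 9 without 80769). The receptor Tgfbr1 was at 520.0, 383 and 147 CPM in GL261 MG, against 2620.4, 3111 and 2721 CPM in normal MG (log2 −3.01 ± 0.46, adjusted p = 2.42e-05), and its signal transducer Smad2 at 57.3, 52.3 and 51.3 CPM in GL261 MG, against 109.8, 115 and 98.2 CPM in normal MG (log2 −1.0 ± 0.13, adjusted p = 3.36e-06). The ubiquitin ligase Smurf1, which targets receptor-activated Smads, was at 42.8, 32.8 and 20.3 CPM in GL261 MG, against 117, 132 and 104 CPM in normal MG (log2 −1.88 ± 0.23, adjusted p = 1.99e-06). Higher were Tgfb3, a ligand, at 11.5, 14.6 and 30.9 CPM in GL261 MG, against 0.0672, 0.744 and 0.823 CPM in normal MG (log2 5.13 ± 0.72, adjusted p = 1.13e-05; log2 4.5 without normal MG 67572), and Ltbp1, which stores latent TGF-beta in the matrix, at 34.2, 42.7 and 45.2 CPM in GL261 MG, against 0.437, 0.705 and 0.96 CPM in normal MG (log2 5.85 ± 0.59, adjusted p = 3.07e-07). Of the 5 genes that rose, 4 were highest in 80769, and of the 13 that fell, 9 were highest in 80766.

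Most genes of antigen presentation to CD4+ T cells rose. Of 16 genes of MHC class II presentation, 10 were higher and 3 lower (10 and 1 without 80769), with a median log2 of 1.95. H2-Ab1, the class II beta chain of the A molecule (chromosome 17, 34263227 to 34269418), was at 3038, 2310.2 and 1635 CPM in GL261 MG, against 17.7, 19 and 30.4 CPM in normal MG (log2 6.7 ± 0.43, adjusted p = 3.52e-09), 104-fold higher. Its partner H2-Aa was at 1831, 1583 and 1054 CPM in GL261 MG, against 5.51, 5.68 and 14.9 CPM in normal MG (log2 7.42 ± 0.5, adjusted p = 4.82e-09), and H2-Eb1, the E beta chain, at 1070.3, 914 and 596 CPM in GL261 MG, against 3.86, 3.33 and 8.12 CPM in normal MG (log2 7.39 ± 0.49, adjusted p = 4.82e-09). These class II chains were at low levels in every normal library and far higher in every GL261 library, least so in 80769. Cd74, the invariant chain that fills the groove until peptide is loaded, was at 7626, 6616 and 4091 CPM in GL261 MG, against 75.6, 51.6 and 127 CPM in normal MG (log2 6.17 ± 0.45, adjusted p = 9.79e-09). Cd40, the co-stimulatory receptor for CD40 ligand on T cells, was at 36.9, 23.9 and 21.7 CPM in GL261 MG, against 0.336, 0.196 and 0.48 CPM in normal MG (log2 6.31 ± 0.35, adjusted p = 1.05e-09). Of the 10 that rose, 9 were highest in 80766. That library also had the highest microglia and the lowest glioma marker sum of the 3, and the part of these cells was not tested. The lower genes were the co-stimulatory ligands Cd80 (log2 −1.19) and Cd86 (log2 −1.02) and H2-Ob (log2 −1.57), a chain of the loading modulator H2-O, and without 80769 the calls on Cd80 (log2 −0.71, adjusted p = 0.0737) and H2-Ob (log2 −1.13, adjusted p = 0.111) were lost. Reads of H2 genes can be shared between near-identical copies, so single H2 values are uncertain.

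The promoters of H2-Aa and H2-Eb1 are shown because both genes rose with the class II regulator Ciita and hold the Y box in the 300 bases around their starts. The Y box CTGATTGG, searched on both strands, is bound by NF-Y, part of the class II enhanceosome. Sequences are from RefSeq (GRCm38.p6), 5′ to 3′ on the gene's strand, with the Y box in capitals.
H2-Aa (chr17:34287774-34288073, minus strand): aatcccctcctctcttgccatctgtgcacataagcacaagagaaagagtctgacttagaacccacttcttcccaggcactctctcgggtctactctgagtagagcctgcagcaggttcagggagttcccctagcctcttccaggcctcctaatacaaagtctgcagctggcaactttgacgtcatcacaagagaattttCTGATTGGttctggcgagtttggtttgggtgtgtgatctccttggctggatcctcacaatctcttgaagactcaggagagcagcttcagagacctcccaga
H2-Eb1 (chr17:34305617-34305916, plus strand): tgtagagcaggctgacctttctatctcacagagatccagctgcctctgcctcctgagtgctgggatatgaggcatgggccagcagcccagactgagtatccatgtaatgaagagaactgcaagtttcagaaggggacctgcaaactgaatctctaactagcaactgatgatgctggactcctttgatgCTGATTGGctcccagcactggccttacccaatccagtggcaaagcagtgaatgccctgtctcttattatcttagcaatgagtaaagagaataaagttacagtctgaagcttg
Among class II presentation genes 11 had a promoter in the RefSeq table, and 4 of these genes held a Y box (36.4%), against 6.43% of the 10847 tested genes with a promoter and 4.1% of all 32851 promoters. A gene with several promoters counts once, if any of them holds the motif. A match is a description of the letters and not evidence of binding.

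MHC class I presentation, which shows peptides to CD8+ T cells, moved in 1 direction. Of 20 genes tested, 17 were higher, 0 lower and 3 not called (17 higher and 0 lower without 80769), with a median log2 of 1.57. Nlrc5, the activator of class I genes, was at 133, 119.9 and 60.8 CPM in GL261 MG, against 3.26, 3.68 and 4.53 CPM in normal MG (log2 4.77 ± 0.35, adjusted p = 9.79e-09). H2-D1, a class I heavy chain, was at 6936, 6076 and 4008 CPM in GL261 MG, against 1034, 897 and 949 CPM in normal MG (log2 2.56 ± 0.21, adjusted p = 4.41e-08). The immunoproteasome subunit Psmb9 was at 199, 163 and 138 CPM in GL261 MG, against 43.5, 44.6 and 42 CPM in normal MG (log2 1.94 ± 0.16, adjusted p = 3.01e-08), Psmb8 at 552, 474 and 481 CPM in GL261 MG, against 154, 150.5 and 159.7 CPM in normal MG (log2 1.7 ± 0.14, adjusted p = 5.19e-08), and Psme2, of the proteasome activator, at 336, 312 and 339.9 CPM in GL261 MG, against 77.1, 78.5 and 79.3 CPM in normal MG (log2 2.07 ± 0.11, adjusted p = 7.86e-10). Of the 17 genes, 16 were highest in 80766. Every GL261 library was above the normal ones for these 5 genes, as for 33.4% of all genes tested.

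Type I interferon response genes rose almost as a block. Of 33 tested, 31 were higher and 0 lower (33 and 0 without 80769), with a median log2 of 4.09 (4.3 without 80769). Of the 31, 17 were highest in 80766, 14 in 80767 and 0 in 80769. Rsad2, viperin, which blocks viral RNA synthesis (chromosome 12, 26442743 to 26456452), was at 122, 153 and 106 CPM in GL261 MG, against 3.33, 1.25 and 2.16 CPM in normal MG (log2 5.81 ± 0.35, adjusted p = 1.77e-09), 56.1-fold higher. Zbp1, a sensor of Z-form nucleic acid, was at 189, 133 and 110.4 CPM in GL261 MG, against 1.04, 1.17 and 1.23 CPM in normal MG (log2 6.96 ± 0.36, adjusted p = 6.06e-10). Oas1a, which makes the activator of RNase L, was at 145, 132 and 91.8 CPM in GL261 MG, against 5.48, 4.74 and 5.31 CPM in normal MG (log2 4.57 ± 0.27, adjusted p = 1.52e-09). Each of these was lowest in 80769 among the GL261 libraries. Ifitm3, which blocks viral entry, was at 713, 731 and 724 CPM in GL261 MG, against 11.1, 10.7 and 15.3 CPM in normal MG (log2 5.87 ± 0.35, adjusted p = 1.52e-09). Ifi27l2a, a small mitochondrial and nuclear membrane protein, was at 360.5, 253 and 266 CPM in GL261 MG, against 3.8, 3.76 and 4.39 CPM in normal MG (log2 6.2 ± 0.29, adjusted p = 2.93e-10). Every GL261 library was above every normal library for these genes, as it was for 33.4% of all genes tested. The 2 genes not called were Irf9 and Mx2.

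Most genes induced mainly by interferon-gamma, the cytokine of T and NK cells, rose as well. Of 24 tested, 17 were higher and 3 lower (17 and 2 without 80769), with a median log2 of 2.64. Gbp6, a guanylate-binding protein of cell-autonomous defence (chromosome 5, 105270702 to 105295871), was at 185, 149 and 96.9 CPM in GL261 MG, against 0.302, 0.235 and 0.0686 CPM in normal MG (log2 9.44 ± 0.58, adjusted p = 2.08e-09). Gbp2, of the same family, was at 443, 278 and 180.2 CPM in GL261 MG, against 13.5, 13.3 and 11.2 CPM in normal MG (log2 4.57 ± 0.38, adjusted p = 4.23e-08). Irgm1, an immunity-related GTPase, was at 876, 869 and 884 CPM in GL261 MG, against 83.2, 103 and 97.4 CPM in normal MG (log2 3.21 ± 0.24, adjusted p = 1.58e-08), with almost the same level in the 3 GL261 libraries. Tgtp1 and Tgtp2 are near-identical T-cell-specific GTPases, so their counts are uncertain as single genes. Tgtp1 was at 52.4, 58.2 and 44.2 CPM in GL261 MG, against 0.336, 0.352 and 0.206 CPM in normal MG (log2 7.41 ± 0.5, adjusted p = 5.49e-09) and Tgtp2 at 113, 87 and 59.4 CPM in GL261 MG, against 0.672, 1.17 and 1.13 CPM in normal MG (log2 6.44 ± 0.54, adjusted p = 4.24e-08). The 3 lower genes were the upstream parts of the pathway, the receptor chains Ifngr1 (log2 −2.50) and Ifngr2 (log2 −0.58) and the kinase Jak1 (log2 −1.49), of which the call on Ifngr2 was lost without 80769 (log2 −0.36, adjusted p = 0.0726). Of 8 NK cell markers tested 5 were higher and 0 lower, and all summed to 30.1, 20.8 and 14.9 CPM in GL261 MG against 1.01, 0.783 and 1.23 CPM in normal MG, highest in 80766, where 14 of the 17 genes were highest too. The T cell markers other than Il7r were higher as given above, with their highest sum in 80769. The part of NK and T cells in the result was not tested.

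Promoters of 3 of these genes carry the letters of interferon-responsive sites and are shown for that. The interferon-stimulated response element (ISRE) was searched as a pair of GAAA runs with any 2 bases between them, and the gamma-activated site (GAS) as TTCNNNGAA, on both strands. Capitals mark the ISRE in all 3 and also the GAS in Tgtp1, where they are separate runs, and the run in Irgm1 joins 2 overlapping ISRE matches.
Rsad2 (chr12:26456403-26456702, minus strand): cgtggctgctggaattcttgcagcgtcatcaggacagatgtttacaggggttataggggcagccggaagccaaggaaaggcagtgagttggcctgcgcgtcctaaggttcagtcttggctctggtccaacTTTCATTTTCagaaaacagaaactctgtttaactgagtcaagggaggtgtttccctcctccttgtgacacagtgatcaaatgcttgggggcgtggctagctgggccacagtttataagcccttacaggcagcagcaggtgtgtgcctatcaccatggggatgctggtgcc
Irgm1 (chr11:48871371-48871670, minus strand): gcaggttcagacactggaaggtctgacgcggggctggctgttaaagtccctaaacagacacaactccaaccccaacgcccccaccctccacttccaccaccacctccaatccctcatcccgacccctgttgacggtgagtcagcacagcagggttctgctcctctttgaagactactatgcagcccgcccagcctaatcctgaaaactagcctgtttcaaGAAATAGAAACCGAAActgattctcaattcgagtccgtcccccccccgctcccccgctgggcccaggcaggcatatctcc
Tgtp1 (chr11:48992197-48992496, minus strand): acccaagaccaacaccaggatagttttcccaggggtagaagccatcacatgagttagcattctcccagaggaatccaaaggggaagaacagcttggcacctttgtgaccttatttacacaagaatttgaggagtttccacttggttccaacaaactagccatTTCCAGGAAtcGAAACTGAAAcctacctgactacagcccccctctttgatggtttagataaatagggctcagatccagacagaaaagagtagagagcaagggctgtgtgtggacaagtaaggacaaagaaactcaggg
The ISRE was in 13 of 22 type I genes with a promoter in the table (59.1%) and in 11 of 18 interferon-gamma genes (61.1%), against 3.82% of tested genes and 3.44% of all promoters. The GAS was in 7 of 18 interferon-gamma genes (38.9%), against 8.53% of tested genes and 8.3% of all promoters, and the ISRE in 4 of 17 class I genes (23.5%).

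**Figure D4:**
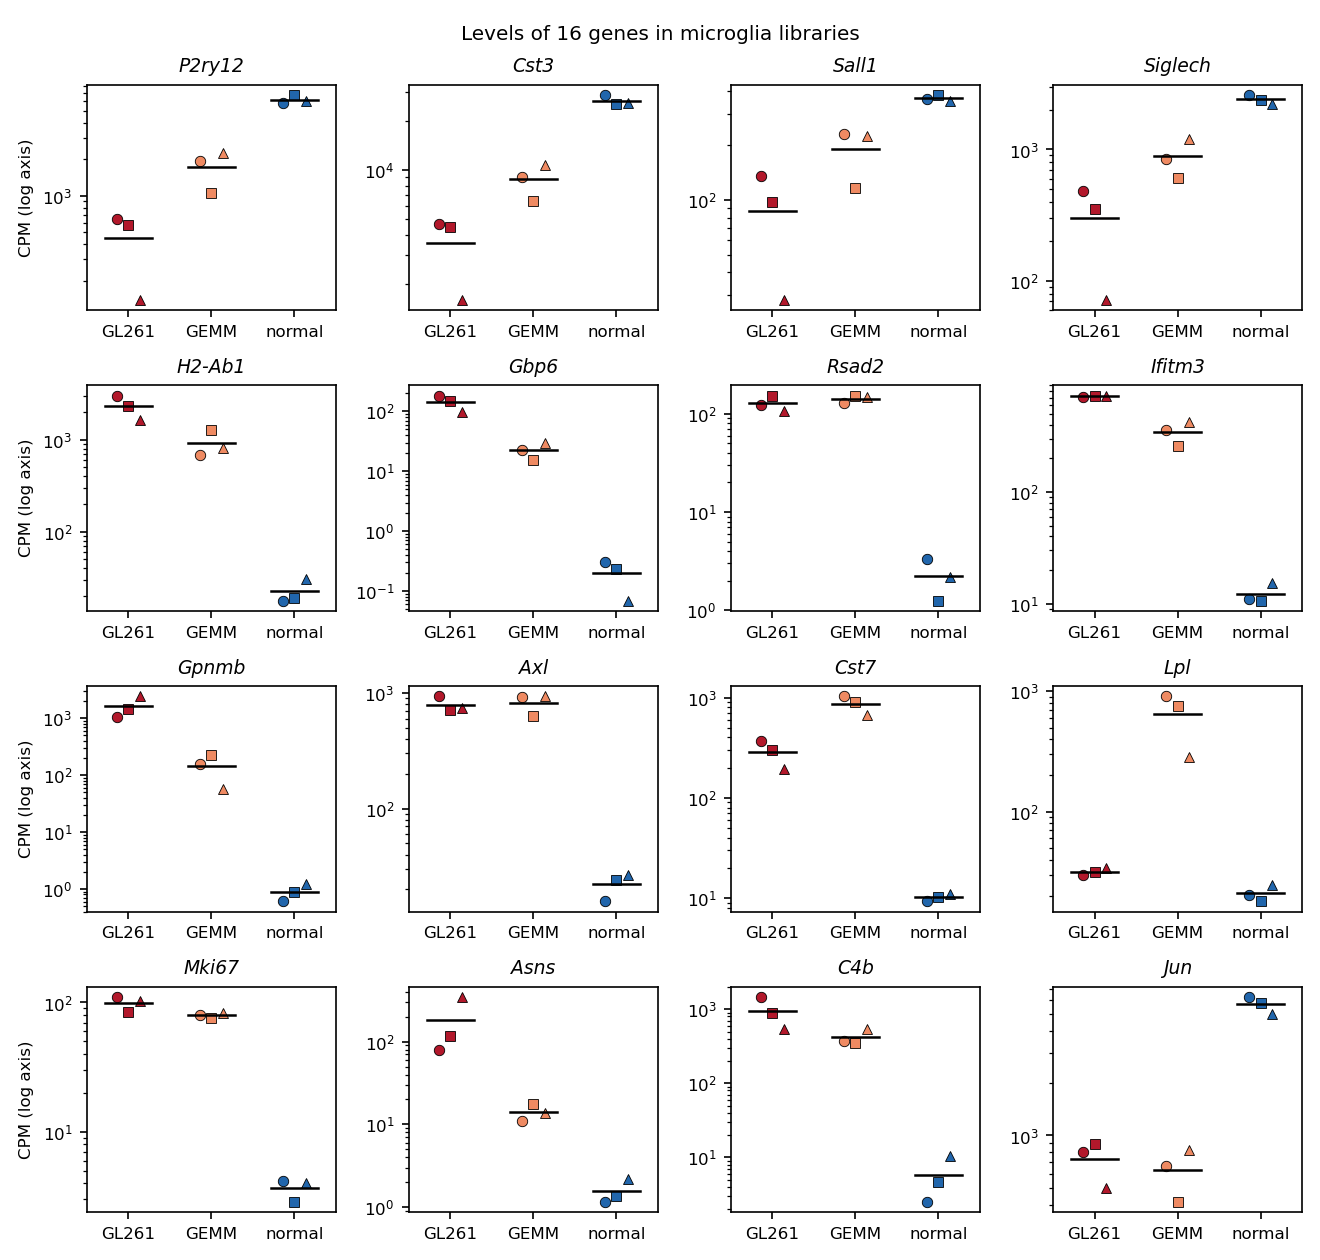
CPM (log axis) of 16 genes in GL261, GEMM and normal MG from left to right; points are libraries and bars group means. Gbp6 and H2-Ab1 are above every normal library in all GL261 libraries, P2ry12 and Jun are below, and Lpl is highest in GEMM MG.

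Disease-associated microglia genes rose in part. Of 32 tested, 19 were higher and 1 lower (19 and 2 without 80769), 12 were not called (2 were lower without 80766 as well, and 3 with the 2 groups fitted alone), and the median log2 was 1.44. Gpnmb, a glycoprotein of lipid-laden macrophages (chromosome 6, 49036518 to 49058182), was at 1061, 1461 and 2447 CPM in GL261 MG, against 0.605, 0.901 and 1.2 CPM in normal MG (log2 10.84 ± 0.8, adjusted p = 1.18e-08). Axl, a receptor for apoptotic cells, was at 933, 712 and 738 CPM in GL261 MG, against 15.7, 24 and 26.7 CPM in normal MG (log2 5.16 ± 0.38, adjusted p = 1.27e-08). Gpnmb was near 1 CPM in normal MG, while Axl started higher. Cst7, cystatin F, a lysosomal protease inhibitor, was at 368, 303 and 195 CPM in GL261 MG, against 9.3, 10.2 and 11.1 CPM in normal MG (log2 4.82 ± 0.45, adjusted p = 1.4e-07). Cd52, a small surface glycoprotein, was at 519, 379 and 306 CPM in GL261 MG, against 45.4, 33.9 and 44.2 CPM in normal MG (log2 3.29 ± 0.22, adjusted p = 4.82e-09). Lgals3, galectin-3, was at 327, 414 and 1087 CPM in GL261 MG, against 5.21, 3.8 and 5.42 CPM in normal MG (log2 6.98 ± 0.56, adjusted p = 2.94e-08; log2 6.27 without 80769). The mRNAs of the receptor and adaptor of the TREM2 pathway, which opens this state in mouse models of neurodegeneration, were not higher. Trem2, the lipid receptor, was the 1 lower gene of the list (log2 −1.48), and its adaptor Tyrobp (log2 −0.14) was not called. Lpl, lipoprotein lipase, was at 29.7, 31.4 and 34.1 CPM in GL261 MG, against 20.5, 18 and 24.5 CPM in normal MG and was not called (log2 0.59 ± 0.51, adjusted p = 0.329).

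Genes of lipid handling moved with this list, 18 of 27 higher and 2 lower (17 and 0 without 80769, and 1 lower without 80766, normal MG 67572 or normal MG 67573), with a median log2 of 2.12 (1.88 without 80769). Cd36, the scavenger receptor for oxidised lipoprotein, was at 281, 109.6 and 60.4 CPM in GL261 MG, against 2.75, 1.29 and 2.47 CPM in normal MG (log2 6.1 ± 0.58, adjusted p = 1.6e-07; log2 5.29 without 80766). Apoc2, the cofactor of lipoprotein lipase, was at 8.49, 16.3 and 19.6 CPM in GL261 MG, against 0.101, 0.196 and 0.411 CPM in normal MG (log2 5.93 ± 0.53, adjusted p = 8.78e-08; log2 6.54 without normal MG 67574). Plin2 and Plin3 coat lipid droplets, and Plin2 was at 329.7, 283 and 444 CPM in GL261 MG, against 44.8, 44.8 and 43.3 CPM in normal MG (log2 2.99 ± 0.3, adjusted p = 2.78e-07). Of the 18 that rose, 13 were highest in 80769. The cholesterol exporter Abca1 was lower (log2 −0.96), a call lost without 80769 (log2 −0.65, adjusted p = 0.18), and Abcg1 (log2 −0.54) was not called.

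Cholesterol synthesis was higher in 12 of 21 genes and lower in 0 (11 and 0 without 80769, and 1 lower without normal MG 67573 or 67574), with a median log2 of 0.69. Srebf2, the transcription factor of the pathway, was at 37.2, 48 and 54 CPM in GL261 MG, against 12.5, 9.87 and 10.7 CPM in normal MG (log2 2.07 ± 0.23, adjusted p = 9.38e-07). Sqle, squalene epoxidase, was at 39.9, 66.6 and 82.6 CPM in GL261 MG, against 4.74, 4.27 and 7.37 CPM in normal MG (log2 3.53 ± 0.39, adjusted p = 8.27e-07), a larger fold than that of the regulator. Fdps, farnesyl diphosphate synthase, was at 28.5, 43.6 and 53.6 CPM in GL261 MG, against 11.8, 12.4 and 12.8 CPM in normal MG (log2 1.77 ± 0.25, adjusted p = 1.02e-05). Of the 12 genes, 9 were highest in 80769, the library with the highest glioma marker sum, whose part was not tested. The sterol regulatory element TCACNCCA was in 2 of the 16 genes of the list with a promoter (12.5%), against 4.52% of tested genes and 4.36% of all promoters.

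In complement and phagocytosis 12 of 27 genes were higher and 7 lower (12 and 5 without 80769). C3, the component on which all routes meet, was at 133, 112 and 391 CPM in GL261 MG, against 0.537, 0.822 and 0.548 CPM in normal MG (log2 8.38 ± 0.53, adjusted p = 2.76e-09; log2 7.59 without 80769). Cfb, factor B of the alternative route, was at 707, 413 and 192 CPM in GL261 MG, against 1.28, 1.33 and 1.95 CPM in normal MG (log2 8.16 ± 0.57, adjusted p = 6.36e-09). C3 was highest in 80769 and factor B in 80766. C4b was at 1461, 884 and 536 CPM in GL261 MG, against 2.49, 4.62 and 10.4 CPM in normal MG (log2 7.36 ± 0.59, adjusted p = 3.02e-08; log2 8.02 without normal MG 67574), and C2, its protease partner, at 68.8, 82.7 and 50.4 CPM in GL261 MG, against 0.941, 1.06 and 1.47 CPM in normal MG (log2 5.85 ± 0.43, adjusted p = 1.02e-08). C1qa (log2 −0.06) and C1qc (log2 −0.42), chains of the initiating complex that resting microglia express, were not called, and C1qb was lower (log2 −0.54), a call lost without 80769 (log2 −0.33, adjusted p = 0.143). Among receptors for apoptotic cells, Axl was higher as above, and Mertk was lower (log2 −2.17).

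Of 23 chemokines 13 were higher and 1 lower (10 and 1 without 80769, and 0 lower without 80766 or normal MG 67574), with a median log2 of 1.83 (1.47 without 80769). Cxcl9, which draws T cells through CXCR3, was at 128, 114 and 34.8 CPM in GL261 MG, against 0.134, 0.0392 and 0.309 CPM in normal MG (log2 9.08 ± 1.05, adjusted p = 1.27e-06; log2 9.86 without normal MG 67574). Ccl5, a chemokine that draws T cells and monocytes, was at 105, 114 and 93.2 CPM in GL261 MG, against 0.84, 0.783 and 0.823 CPM in normal MG (log2 6.98 ± 0.75, adjusted p = 5.36e-07). Cxcl16, a membrane-bound chemokine, was at 447, 337 and 259 CPM in GL261 MG, against 93.6, 86.2 and 99.3 CPM in normal MG (log2 1.9 ± 0.21, adjusted p = 7.44e-07). These 3 were above the normal range in all GL261 libraries, like 33.4% of all genes tested. Among the GL261 libraries they were lowest in 80769. Ccl7, a ligand of CCR2, was at 89.5, 67.1 and 53.4 CPM in GL261 MG, against 9.98, 7.83 and 6.99 CPM in normal MG (log2 3.08 ± 0.38, adjusted p = 2.86e-06). Ccl8 was set by 1 library, at 89.8, 37.9 and 3306 CPM in GL261 MG, against 0.202, 0.313 and 0.343 CPM in normal MG (log2 11.94 ± 2.11, adjusted p = 0.00014); without 80769 it was at log2 7.78, and limma-voom did not call it (adjusted p = 0.0514).

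Receptors for chemoattractants were split, 4 of 17 higher and 4 lower (2 and 4 without 80769). The higher count was also 2 without 80767 or without any 1 normal library, and 1 by limma-voom. Cxcr4, the receptor for CXCL12, was at 11.1, 15.9 and 16.8 CPM in GL261 MG, against 0.773, 0.783 and 1.17 CPM in normal MG (log2 4.0 ± 0.4, adjusted p = 2.7e-07). Cxcr3, the receptor for CXCL9, was lower at 0.514, 0.354 and 0.337 CPM in GL261 MG, against 1.85, 2.47 and 3.12 CPM in normal MG (log2 −2.61 ± 0.64, adjusted p = 0.00218). Ccr7, the receptor of migrating dendritic cells, was at 2.61, 0.221 and 39 CPM in GL261 MG, against 0.403, 0.587 and 0.583 CPM in normal MG, called with 80769 (log2 4.73 ± 1.4, adjusted p = 0.00843) and not without it (log2 1.44, adjusted p = 0.393).

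Inflammatory cytokine and NF-kB genes went both ways. Of 27 genes, 11 were higher and 7 lower (11 and 6 without 80769). Il1b, interleukin 1 beta, was at 979, 826 and 191 CPM in GL261 MG, against 100.3, 42.6 and 43.6 CPM in normal MG (log2 3.42 ± 0.56, adjusted p = 5.14e-05). Its antagonist Il1rn was at 134, 138 and 111 CPM in GL261 MG, against 1.07, 1.41 and 1.41 CPM in normal MG (log2 6.62 ± 0.65, adjusted p = 2.34e-07). Nfkb1 was at 48.4, 43.5 and 16 CPM in GL261 MG, against 190.4, 187 and 164 CPM in normal MG (log2 −2.33 ± 0.3, adjusted p = 3.89e-06) and Nfkbia, the inhibitor that NF-kB itself induces, at 588, 576 and 204 CPM in GL261 MG, against 1920.5, 1469 and 1596 CPM in normal MG (log2 −1.87 ± 0.32, adjusted p = 8.2e-05). Bcl3, a nuclear member of the inhibitor family, was at 42.6, 38.2 and 22.7 CPM in GL261 MG, against 9.17, 5.33 and 6.24 CPM in normal MG (log2 2.32 ± 0.32, adjusted p = 7.82e-06). Tnf (log2 0.68) and Il6 (log2 −1.30) were not called, and Tnf was called higher without 80769 (log2 1.21, adjusted p = 0.0462).

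Alternative activation genes, known from macrophages exposed to interleukin 4, depended on 80769. Of 16 tested, 10 were higher and 1 lower, at a median log2 of 3.94, and without 80769 there were 5 higher and 1 lower, at a median log2 of 0.88. By limma-voom 4 were higher. Arg1, which degrades arginine, was at 74.8, 62.3 and 2789.9 CPM in GL261 MG, against 1.81, 1.61 and 1.85 CPM in normal MG (log2 9.11 ± 1.98, adjusted p = 0.000871; without 80769 log2 5.28). Chi3l3 was at 4421 CPM in 80769 and at most 1.24 CPM in the other 2 GL261 libraries, and Retnla at 1000.3 CPM in 80769 and at most 0.386 CPM in them. Both were high in GL261 BMDM 80769 as well, Chi3l3 at 22717 CPM and Retnla at 5189 CPM, and Chi3l3 shares sequence with Chi3l4. Genes of the list whose call held without 80769 included Msr1, the class A scavenger receptor, at 183, 139 and 147 CPM in GL261 MG, against 8.03, 7.64 and 11.1 CPM in normal MG (log2 4.13 ± 0.44, adjusted p = 4.63e-07), and Tgm2, a transglutaminase, at 691, 526 and 848 CPM in GL261 MG, against 128, 118 and 108 CPM in normal MG (log2 2.54 ± 0.43, adjusted p = 7.92e-05).

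Ligands and enzymes that restrain T cells went both ways, 5 of 17 higher and 7 lower (5 and 5 without 80769, and 4 lower with the 2 groups fitted alone). Cd274, which encodes PD-L1, was at 172, 103 and 56.7 CPM in GL261 MG, against 16.7, 19 and 19.1 CPM in normal MG (log2 2.59 ± 0.35, adjusted p = 8.13e-06). Pdcd1lg2, which encodes PD-L2, was at 4.84, 1.86 and 44.8 CPM in GL261 MG, against 0.101, 0 and 0.0686 CPM in normal MG (log2 8.05 ± 1.59, adjusted p = 0.00038), at log2 5.69 without 80769 and not called by limma-voom. Pvr, the poliovirus receptor that binds TIGIT, was at 36.2, 45 and 59.2 CPM in GL261 MG, against 15.2, 6.58 and 6.99 CPM in normal MG (log2 2.29 ± 0.35, adjusted p = 2.91e-05). Havcr2, which encodes TIM-3, was at 236, 177 and 126 CPM in GL261 MG, against 698, 814 and 626 CPM in normal MG (log2 −1.99 ± 0.24, adjusted p = 1.71e-06), and Sirpa, the receptor for CD47, at 1129, 909.7 and 394 CPM in GL261 MG, against 2369.7, 2819 and 2389.7 CPM in normal MG (log2 −1.64 ± 0.28, adjusted p = 9.53e-05). VISTA, another inhibitory ligand, is listed under the older symbol 4632428N05Rik and was at 481, 436 and 151 CPM in GL261 MG, against 2055, 2210.3 and 2009 CPM in normal MG (log2 −2.55 ± 0.31, adjusted p = 2.36e-06).

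Nearly every cell cycle gene was higher, 37 of 38 with 0 lower (36 without 80769), at a median log2 of 4.38 (4.22 without 80769). Mki67, the proliferation antigen, was at 110.3, 84.2 and 102 CPM in GL261 MG, against 4.2, 2.86 and 4.04 CPM in normal MG (log2 4.73 ± 0.36, adjusted p = 1.55e-08). Aurkb, a mitotic kinase, was at 46.3, 39.1 and 53.3 CPM in GL261 MG, against 1.14, 1.49 and 1.65 CPM in normal MG (log2 5.02 ± 0.35, adjusted p = 6.1e-09), Cenpa, the centromeric histone, at 79.9, 65 and 119 CPM in GL261 MG, against 2.52, 2.98 and 3.09 CPM in normal MG (log2 4.94 ± 0.31, adjusted p = 2.72e-09), Tk1, thymidine kinase, at 33.9, 19.5 and 41.5 CPM in GL261 MG, against 1.18, 1.14 and 0.926 CPM in normal MG (log2 4.87 ± 0.28, adjusted p = 1.39e-09), and E2f1, the transcription factor of S phase entry, at 34.5, 22.5 and 38.3 CPM in GL261 MG, against 1.38, 1.41 and 2.78 CPM in normal MG (log2 4.09 ± 0.28, adjusted p = 5.49e-09). Of the 37, 34 were highest in 80769, where glioma markers were highest too. Which cells carried these transcripts was not tested. The cell cycle homology region TTTGAA was in 13 of the 32 genes of the list with a promoter (40.6%), against 14.7% of tested genes and 17.9% of all promoters.

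Glycolysis and hypoxia genes were higher in 18 of 33 and lower in 5 (17 and 4 without 80769), with a median log2 of 1.44 (0.91 without 80769). Pgk1, phosphoglycerate kinase, was at 114, 159 and 266 CPM in GL261 MG, against 26.6, 24.7 and 25 CPM in normal MG (log2 2.82 ± 0.27, adjusted p = 1.78e-07), and Tpi1, triose phosphate isomerase, at 386, 532 and 672 CPM in GL261 MG, against 104, 78.2 and 83.5 CPM in normal MG (log2 2.58 ± 0.26, adjusted p = 3.33e-07). Ldha, which makes lactate, was at 1066, 1200.2 and 1570.5 CPM in GL261 MG, against 315, 249.7 and 254 CPM in normal MG (log2 2.23 ± 0.2, adjusted p = 7.37e-08). The 3 enzymes were higher in each GL261 library than in any normal one, as were 33.4% of all genes tested. Pfkp, the platelet form of phosphofructokinase, was at 62.8, 86.4 and 125 CPM in GL261 MG, against 3.39, 3.84 and 4.87 CPM in normal MG (log2 4.5 ± 0.46, adjusted p = 3.64e-07). Mif, a cytokine counted with the hypoxia genes, was at 228, 275 and 398 CPM in GL261 MG, against 31.9, 25.3 and 35 CPM in normal MG (log2 3.29 ± 0.25, adjusted p = 1.6e-08). Hif1a itself (log2 0.34) was not called, and its partner Arnt was lower (log2 −1.23). Of the 18, 13 were highest in 80769.

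Genes of the integrated stress response went both ways. Of 24 genes, 12 were higher and 9 lower (12 and 8 without 80769). Trib3, a pseudokinase induced by ATF4, was at 51.4, 104 and 171 CPM in GL261 MG, against 0.638, 0.313 and 0.206 CPM in normal MG (log2 8.11 ± 0.74, adjusted p = 1.1e-07). Asns, asparagine synthetase (chromosome 6, 7675165 to 7693209), was at 80.01, 116 and 347 CPM in GL261 MG, against 1.14, 1.37 and 2.16 CPM in normal MG (log2 6.85 ± 0.71, adjusted p = 3.91e-07; log2 5.97 without 80769). Mthfd2 and Shmt2 belong to mitochondrial folate metabolism, Mthfd2 at 54.2, 61.4 and 136 CPM in GL261 MG, against 12, 8.03 and 8.71 CPM in normal MG (log2 3.13 ± 0.35, adjusted p = 8.15e-07) and Shmt2 at 93.9, 105 and 208 CPM in GL261 MG, against 27.8, 30.7 and 27.3 CPM in normal MG (log2 2.25 ± 0.29, adjusted p = 3.7e-06). The mRNAs of the kinases Eif2ak3 (log2 −1.10) and Eif2ak4 (log2 −0.77) and of Atf4 (log2 −0.61), which is regulated mainly in translation, were lower, as were Ddit3 (log2 −0.88), the stress transcription factor CHOP, and Hspa5 (log2 −0.69), a chaperone of the endoplasmic reticulum. The call on Ddit3 was lost without 80769 (log2 −0.76, adjusted p = 0.0604). Of the 12 that rose, 11 were highest in 80769. The Asns promoter is shown because it holds the amino acid response element TGATGNAA, in capitals, searched on both strands.
Asns (chr6:7693160-7693459, minus strand): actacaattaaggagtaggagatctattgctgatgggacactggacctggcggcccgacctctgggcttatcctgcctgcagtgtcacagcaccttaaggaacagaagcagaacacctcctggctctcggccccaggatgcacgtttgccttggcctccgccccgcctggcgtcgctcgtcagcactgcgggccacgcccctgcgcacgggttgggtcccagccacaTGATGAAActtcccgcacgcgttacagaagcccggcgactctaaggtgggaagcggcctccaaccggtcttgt
That element was in 6 of the 21 genes of the list with a promoter (28.6%), against 3.01% of tested genes and 3.97% of all promoters.

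Matrix genes and proteases were higher in 19 of 26 and lower in 3 (16 and 3 without 80769), with a median log2 of 2.59 (2.13 without 80769). Timp1, an inhibitor of metalloproteinases, was at 36.6, 47.9 and 131 CPM in GL261 MG, against 0.0336, 0.0392 and 0.0686 CPM in normal MG (log2 10.4 ± 0.81, adjusted p = 2.31e-08; log2 9.63 without 80769). Fn1, fibronectin, was at 500.0, 453 and 965 CPM in GL261 MG, against 3.09, 2.19 and 5.04 CPM in normal MG (log2 7.53 ± 0.86, adjusted p = 1.19e-06). Tgfbi, a matrix protein induced by TGF-beta, was at 301, 234 and 239 CPM in GL261 MG, against 39.8, 46.2 and 54 CPM in normal MG (log2 2.47 ± 0.3, adjusted p = 2.32e-06), and Hpse, heparanase, at 76.3, 57.4 and 39.8 CPM in GL261 MG, against 0.336, 0.901 and 0.891 CPM in normal MG (log2 6.35 ± 0.39, adjusted p = 2.21e-09). Of 9 markers of pericytes and fibroblasts, cells that also make matrix, 3 were higher and 0 lower. They summed to 102, 24.8 and 138 CPM in GL261 MG against 13.9, 7.68 and 15.7 CPM in normal MG. Col3a1, a collagen, was 72.3, 18.4 and 98.2 CPM of that in GL261 MG against 0.101, 0.274 and 0.206 CPM in normal MG. The other 8 markers summed to 29.2, 6.46 and 39.7 CPM in GL261 MG against 13.8, 7.4 and 15.5 CPM in normal MG. The part of pericytes and fibroblasts was not tested.

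Genes of motility, the S100 proteins and annexins were higher in 23 of 26 and lower in 1 (21 and 1 without 80769), at a median log2 of 3.45 (2.6 without 80769). Lgals1, galectin-1, was at 258, 466 and 865 CPM in GL261 MG, against 1.88, 1.76 and 2.78 CPM in normal MG (log2 7.95 ± 0.56, adjusted p = 6.45e-09). Cd44, the hyaluronan receptor, was at 76.5, 78.8 and 154 CPM in GL261 MG, against 1.55, 1.06 and 1.99 CPM in normal MG (log2 6.06 ± 0.41, adjusted p = 4.82e-09). Anxa2, a membrane-binding annexin, was at 151, 229.8 and 529 CPM in GL261 MG, against 2.75, 2.66 and 4.63 CPM in normal MG (log2 6.5 ± 0.62, adjusted p = 1.68e-07; log2 5.82 without 80769), and Anxa5 at 180.5, 189.5 and 309.8 CPM in GL261 MG, against 38.8, 48.8 and 45.7 CPM in normal MG (log2 2.35 ± 0.2, adjusted p = 7e-08). Of the 23, 22 were highest in 80769.

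Growth factor and angiogenesis genes were higher in 14 of 23 and lower in 2 (11 and 1 without 80769), and by limma-voom 9 were higher. The lower count was also 1 without 80767, normal MG 67573 or normal MG 67574. Vegfa, the endothelial growth factor, was at 38.6, 79.2 and 189.8 CPM in GL261 MG, against 11.9, 5.6 and 4.87 CPM in normal MG (log2 3.78 ± 0.55, adjusted p = 1.53e-05; log2 2.98 without 80769). Pgf, placental growth factor, was at 2.36, 14.9 and 11 CPM in GL261 MG, against 0.369, 0.196 and 0.48 CPM in normal MG (log2 4.72 ± 0.8, adjusted p = 7.29e-05), and Angpt2, which loosens vessels, at 12.1, 6.5 and 5.05 CPM in GL261 MG, against 0.235, 0.352 and 0.103 CPM in normal MG (log2 5.08 ± 0.88, adjusted p = 9.7e-05). Thbs1, thrombospondin 1, an inhibitor of angiogenesis, was at 103, 90.1 and 160.1 CPM in GL261 MG, against 34.8, 30.3 and 28.1 CPM in normal MG (log2 1.92 ± 0.31, adjusted p = 5.03e-05). The ribonuclease Ang was lower, at 38.7, 37.3 and 29.3 CPM in GL261 MG, against 92.6, 84.7 and 92.2 CPM in normal MG (log2 −1.36 ± 0.21, adjusted p = 2.98e-05).

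Purinergic genes moved in both directions. Of 18 genes, 10 were higher and 6 lower (9 and 5 without 80769). Beside P2ry12 above, P2rx7, the ATP-gated channel that triggers the inflammasome, was lower at 115, 98.3 and 70.4 CPM in GL261 MG, against 279, 332 and 273 CPM in normal MG (log2 −1.64 ± 0.19, adjusted p = 1.41e-06). Higher were P2ry1, an ADP receptor, at 7.71, 9.02 and 19.6 CPM in GL261 MG, against 0.0336, 0.157 and 0 CPM in normal MG (log2 7.53 ± 0.97, adjusted p = 4.22e-06), P2ry14, a receptor for UDP-glucose, at 31.8, 26.8 and 17.5 CPM in GL261 MG, against 1.34, 0.744 and 0.514 CPM in normal MG (log2 4.85 ± 0.36, adjusted p = 1.37e-08), and P2ry10, a lysophospholipid receptor, at 12.1, 14.9 and 35.9 CPM in GL261 MG, against 0.235, 0.0783 and 0.309 CPM in normal MG (log2 6.59 ± 1.04, adjusted p = 3.52e-05; log2 5.96 without 80769). P2ry1 rests on few counts in normal MG, and its log2 value was 8.96 without normal MG 67573 and 6.88 without 67574.

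Immediate early genes, which also respond to tissue dissociation, were lower in 18 of 27 and higher in 5 (17 and 5 without 80769), at a median log2 of −1.47. The higher count was 2 when the 2 groups were fitted alone and 3 without 80766, normal MG 67573 or normal MG 67574. Jun was at 805, 891 and 501 CPM in GL261 MG, against 6279, 5765 and 5019.8 CPM in normal MG (log2 −2.96 ± 0.35, adjusted p = 1.66e-06) and Jund at 218, 257 and 219 CPM in GL261 MG, against 663, 686 and 725 CPM in normal MG (log2 −1.58 ± 0.24, adjusted p = 2.26e-05), both subunits of AP-1. Klf6 was at 427, 486 and 359 CPM in GL261 MG, against 1361, 1148 and 1008 CPM in normal MG (log2 −1.47 ± 0.17, adjusted p = 1.61e-06) and Ier2 at 439, 436 and 207 CPM in GL261 MG, against 1187, 947 and 829.9 CPM in normal MG (log2 −1.46 ± 0.22, adjusted p = 2.56e-05). Nr4a2, an orphan nuclear receptor, went the other way, at 19.9, 13.3 and 18.6 CPM in GL261 MG, against 1.61, 1.37 and 1.34 CPM in normal MG (log2 3.58 ± 0.34, adjusted p = 1.45e-07). All normal libraries were above all GL261 libraries for Jun and Jund, as they were for 33.1% of all genes tested. The labels give 1 dissociation protocol for all samples, and differences in handling of tumour and normal brain cannot be told apart from the groups.

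The same GL261 libraries were then set against GEMM MG, in the contrast that tests whether microglia of the 2 tumour models differ. Of 15363 genes, 2892 were higher in GL261 MG (18.8%) and 2383 lower (15.5%), with a median log2 of 0.039. The higher count was 1811 without GEMM MG 68702 and 1924 without GEMM MG BB30105. The list counts of this contrast were not recomputed with a library left out. Markers of oligodendrocyte precursors or glioma cells summed to 509.9, 628 and 1019.7 CPM in GL261 MG against 213, 261 and 173 CPM in GEMM MG, and microglia markers to 10261, 8105 and 2773 CPM in GL261 MG against 26063, 18247 and 28963 CPM in GEMM MG. Their part in the difference between models was not tested.

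Of interferon-gamma response genes 16 of 24 were higher and 3 lower in GL261 MG than in GEMM MG, at a median log2 of 1.58. Gbp6 averaged 144 ± 44.2 CPM in GL261 MG and 22.8 ± 7.1 CPM in GEMM MG (SD, n = 3 each; log2 2.65 ± 0.39, adjusted p = 8.55e-05). Irgm1 averaged 876 ± 7.43 CPM in GL261 MG and 195 ± 44.8 CPM in GEMM MG (log2 2.17 ± 0.23, adjusted p = 5.36e-06). Cxcl9 averaged 92.4 ± 50.4 CPM in GL261 MG and 9.37 ± 9.03 CPM in GEMM MG (log2 3.31 ± 0.73, adjusted p = 0.00212; log2 4.39 without GEMM MG BB30105). Type I interferon genes had 9 of 33 higher and 0 lower, at a median log2 of 0.47, and Rsad2 averaged 127 ± 23.8 CPM in GL261 MG and 142 ± 11.6 CPM in GEMM MG and was not called (log2 −0.16 ± 0.28, adjusted p = 0.699). Class II presentation had 7 of 16 higher and 2 lower. H2-Ab1 averaged 2328 ± 702 CPM in GL261 MG and 925 ± 316 CPM in GEMM MG (log2 1.33 ± 0.34, adjusted p = 0.00619), a call lost without GEMM MG 68702 (log2 1.05, adjusted p = 0.0591). H2-Aa (log2 1.19), H2-Eb1 (log2 1.27) and Cd74 (log2 1.24) were called higher too. Each lost its call without GEMM MG 68702 (adjusted p = 0.136, 0.109 and 0.0945), and also without GEMM MG BB30105 or without GL261 MG 80766.

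Disease-associated genes ran the other way, 19 of 32 lower in GL261 MG than in GEMM MG and 1 higher, at a median log2 of −1.18. Lpl averaged 31.7 ± 2.26 CPM in GL261 MG and 651 ± 325 CPM in GEMM MG (log2 −4.36 ± 0.57, adjusted p = 3.2e-05). Cst7 averaged 289 ± 87.5 CPM in GL261 MG and 869.5 ± 179 CPM in GEMM MG (log2 −1.59 ± 0.39, adjusted p = 0.00453). The exception was Gpnmb, at 1657 ± 713 CPM in GL261 MG and 146 ± 83.9 CPM in GEMM MG (log2 3.5 ± 0.57, adjusted p = 0.00019). Among lipid genes 12 of 27 were lower and 3 higher. Apoc1, a lipoprotein cofactor, averaged 4.42 ± 3.98 CPM in GL261 MG and 74.3 ± 53.6 CPM in GEMM MG (log2 −4.08 ± 0.8, adjusted p = 0.000845; log2 −5.13 without GL261 MG 80767).

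Microglia identity was also lower in GL261 MG than in GEMM MG, for 18 of 30 genes with 0 higher, at a median log2 of −1.28. P2ry12 averaged 452 ± 273 CPM in GL261 MG and 1736 ± 614 CPM in GEMM MG (log2 −1.94 ± 0.44, adjusted p = 0.00265), and Gpr34 228 ± 143 CPM in GL261 MG and 1486 ± 574 CPM in GEMM MG (log2 −2.71 ± 0.47, adjusted p = 0.000346). Of cell cycle genes 8 of 38 were higher and 0 lower, and Mki67 averaged 98.9 ± 13.3 CPM in GL261 MG and 79.6 ± 4.11 CPM in GEMM MG and was not called (log2 0.31 ± 0.3, adjusted p = 0.448). The integrated stress response had 11 of 24 higher and 5 lower, with Trib3 at 109 ± 59.9 CPM in GL261 MG and 4.69 ± 3.59 CPM in GEMM MG (log2 4.51 ± 0.59, adjusted p = 3.2e-05; log2 5.27 without GEMM MG BB30101) and Asns at 181 ± 145 CPM in GL261 MG and 14.1 ± 3.4 CPM in GEMM MG (log2 3.68 ± 0.6, adjusted p = 0.000194; log2 2.79 without GL261 MG 80769).

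**Figure D5:**
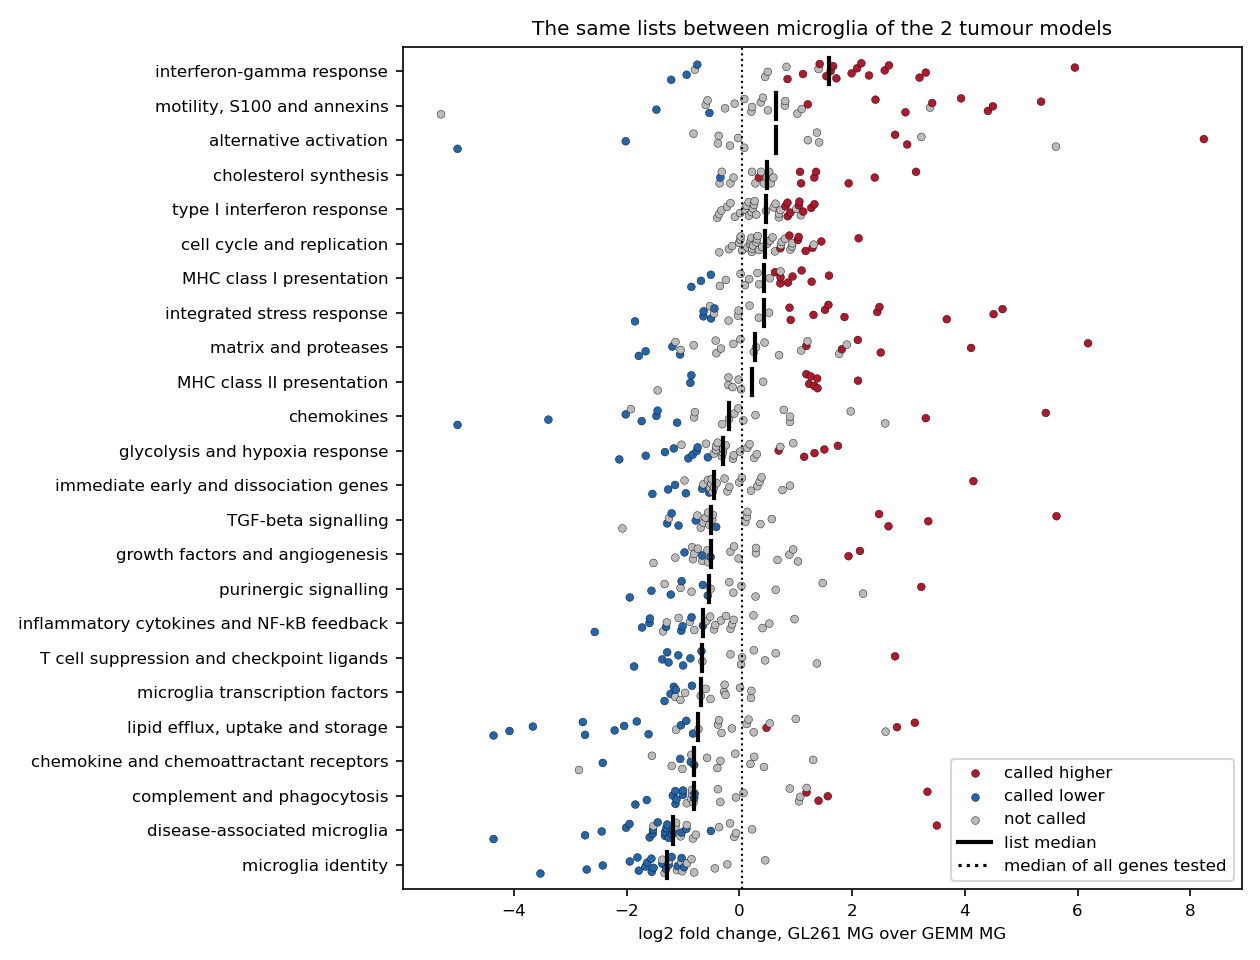
Each gene list by the log2 fold change of its tested members, GL261 MG over GEMM MG, as points coloured by call with the median as a bar. Interferon-gamma genes have a median of 1.58 and disease-associated genes a median of −1.18.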

How the data were processed

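Per the labels' protocols, cells were dissociated enzymatically, sorted into TRIzol and their polyadenylated RNA amplified with a Smart-Seq kit. The values are raw counts per gene symbol as deposited by the authors, whole numbers with no normalization. CASAVA 1.8, STAR 2.5.0e, HTSeq, DESeq2 and mm10 are named in the submitters' processing notes, with no roles. The sources used here give neither the annotation nor the strand setting used to count, so antisense, overlapping and near-identical genes (H2, Ly6, Tgtp, Chi3l, Xlr and S100 families) can share reads. The table lists 23329 symbols, 21798 with a count.

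In R 4.3.3, genes passing filterByExpr (minimum count 10, minimum total 15; 15363 genes) were scaled by TMM and fitted with edgeR 4.0.16 (quasi-likelihood, robust) over all 20 libraries in 6 groups, which share 1 estimate of the spread. Genes were called at 0.05 after Benjamini-Hochberg adjustment over the whole table, and ± after a log2 value is its SE. Groups came from the titles. Alternatives were DESeq2 1.42.0, limma-voom (limma 3.58.1), median-ratio scaling, other filters, the 2 groups alone, and each library left out. Fits were tested on simulated data.

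The members, the 24 gene lists and the 17 marker lists were chosen with earlier results of these data known. The rule for named genes takes, in each direction, the 10 called genes of largest fold (20 CPM or more in a group, no overlap), up to 5 of each list by smallest p, and genes of the sort and lineage, with 8 per direction against GEMM MG, and not all of them are given. List genes given with only a log2 value, and the genes singled out in single libraries, were chosen after their values were seen. Their log2 values are from the same fit. Coordinates and promoters are of GRCm38.p6 in RefSeq, whose symbols matched 20748 of the table's directly and 2360 by an older symbol. Promoters run from 250 bases before to 50 after a start. With this depth a group floor of 3 counts is 0.0413 CPM in GL261 MG and 0.0355 CPM in normal MG, and floors and Poisson intervals cover counting error only. Some results are not reported here.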

Additional observations from a re-analysis of the deposited data

Results flagged for a closer look

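The microglia of the 2 tumour models differed from each other in the contrast of GL261 MG with GEMM MG, and 8 genes per direction with the largest folds are given here. Normal MG cancel out of this contrast. Higher in GL261 MG were Pet2 (log2 13.18), Nxf3 (log2 12.42) and Gm773 (log2 12.05), all X-linked and with no count in GEMM MG, at least 1443-fold, 850-fold and 659-fold above a floor of 3 counts. Pet2 was at 27.6, 41.6 and 98.9 CPM in GL261 MG and at 12, 21.1 and 30.4 CPM in GL261 BMDM. Lect1, a cartilage protein that inhibits vessels (log2 10.99), had 3 counts in GEMM MG, a ratio of 2363-fold with an exact Poisson 95% interval of 809 to 11458. Osr2, a zinc-finger transcription factor (log2 10.65), Xlr3c (log2 10.52) and the intermediate filament Prph (log2 10.34) had 1, 1 and 2 counts in GEMM MG, and ratios of 2337-fold with an exact Poisson 95% interval of 419 to 92317, 2133-fold with an exact Poisson 95% interval of 383 to 84261, and 1599-fold with an exact Poisson 95% interval of 443 to 13203. Krt8, a keratin of epithelia (log2 9.96), was at 127, 246 and 440.4 CPM in GL261 MG and 0.295, 0.408 and 0.0443 CPM in GEMM MG. The rule that picked these 8 genes required every GL261 MG library to be above every GEMM MG library, so that separation is not a result. All 8 were present in GL261 BMDM. Where a group was near 0 the fitted value moved with single libraries, Pet2 to log2 12.46 and Nxf3 to 11.67 without GL261 MG 80769, Lect1 to 11.84 without GEMM MG 68702, and Osr2 to 12.19 and Xlr3c to 12.06 without GEMM MG BB30101.

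Lower in GL261 MG than in GEMM MG were Gm8615 (log2 −8.51; −9.69 without GL261 MG 80766) and Expi (log2 −6.26). Expi was at 0.557, 0.973 and 2.54 CPM in GL261 MG against 18.6, 287 and 13.2 CPM in GEMM MG, at log2 −3.63 without GEMM MG BB30101, and limma-voom did not call it (adjusted p = 0.0572). Lpl, lipoprotein lipase (log2 −4.36), was at 29.7, 31.4 and 34.1 CPM in GL261 MG against 909, 757 and 287 CPM in GEMM MG, and GL261 MG lay close to normal MG at 20.5, 18 and 24.5 CPM. Gria2, a glutamate receptor subunit of neurons and oligodendrocyte precursors (log2 −4.34; −6.04 without GL261 MG 80769), was at 0.257, 0.354 and 2.36 CPM in GL261 MG against 17.4, 30.1 and 13.8 CPM in GEMM MG. Apoc1 (log2 −4.08), 3110035E14Rik (log2 −3.75; −4.66 without GL261 MG 80769), the microglial gene Fcrls (log2 −3.53) and S1pr1, a receptor for sphingosine 1-phosphate (log2 −3.25), completed the list. Fcrls was at 337, 315 and 105 CPM in GL261 MG, 3376, 2203 and 3152 CPM in GEMM MG and 2521, 2840.5 and 2341 CPM in normal MG, so GEMM MG overlapped the normal range and GL261 MG did not.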

How the results depend on the processing

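Against normal MG, the higher count was 3930 to 5144 and the lower count 3685 to 4686 over all alternatives, and with 1 library left out at a time 3930 to 4592 and 3685 to 4045. No named gene changed sign with a call under any alternative run. With median-ratio scaling the median of all genes was log2 0.075 and 55.9% of calls were higher, against 0.0061 and 52.9% with TMM. The library dependence of single genes, and of lists against normal MG, is given beside them. List counts against GEMM MG were not recomputed under any alternative. Of the named genes, 21 lost their call against GEMM MG without 80769 and 4 gained one. With the 2 groups fitted alone 29 lost it. Calls against normal MG that limma-voom did not make were those of BC018473, Ccl8, Ccr7, F7 and Pdcd1lg2. Against GEMM MG the higher count ranged from 1811 to 2796 and the lower count from 1940 to 2570 with 1 library left out. With the 2 groups fitted alone the higher and lower counts against GEMM MG were 2186 and 1713. A fit of the 2 groups compared without GL261 MG 80769 was added after seeing the data and gave 4749 higher and 4424 lower against normal MG, and 2318 and 2320 against GEMM MG. The cause of these moves was not tested. No paired analysis was possible because GL261 MG, GEMM MG and normal MG share no replicate number. GL261 MG had the lowest total counts of the MG groups, so its low genes were measured least precisely.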

Other observations

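Single GL261 MG libraries held some genes far above the other 2. In 80769 these were, beside Chi3l3 and Retnla, the eosinophil-type ribonuclease Ear11 (171 CPM in 80769 and at most 0.814 CPM in the other 2), Chi3l4 (53.4 and at most 0.771 CPM), the haemoglobin scavenger receptor Cd163 (103 and at most 2.65 CPM), the carbonyl reductase Cbr2 (78.1 and at most 2.01 CPM) and the homeobox gene Msx3 (30.1 and at most 0.0429 CPM). The BMDM library of the same number was the highest of the 3 GL261 BMDM libraries for each of these, with Cd163 at 890 CPM and Ear11 at 608 CPM. Postn, the matrix protein periostin, was at 329 CPM in 80769 and at most 11.4 CPM in the other 2. In 80767 the red cell genes Beta-s, a beta globin, and Alas2, of haem synthesis, were at 1769.6 and 69.3 CPM, and at most 28.2 and 0.686 CPM in the other 2, and the B cell chemokine Cxcl13 was at 107 CPM and at most 17.1 CPM in the other 2. In GL261 BMDM 80767 Cxcl13 was at 0.618 CPM, the highest of the 3 BMDM libraries. In 80766 the endothelial gene Eltd1 was at 32.9 CPM and at most 7.47 CPM in the other 2.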
